A study of Mus musculus with 14 samples.

Results

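Cholesterol synthesis was followed here through 8 genes in mouse blastocysts at E4.0, chosen by gene name among the gene probes of the array. The 8 are *Hmgcs1*, *Idi1*, *Fdft1*, *Sqle*, *Lss* and *Cyp51*, which encode enzymes of the pathway, and *Insig1* and *Srebf2*, which encode its regulators. They were measured by 20 of the 41174 gene probes, or 8 of the 27962 gene names on the array. None of them takes up cholesterol from outside the cell. Of the receptors of uptake, *Scarb1* and *Vldlr* are given with the transport genes, and others were not analysed here.

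The 14 samples comprised 8 clones of cumulus cells and 6 controls from in vitro fertilization (IVF embryos), 3 of each sex. The donor nucleus was brought into the oocyte by fusing the cells in 4 clones (fusion clones) and by injecting it in the other 4 (injection clones). Cumulus cells surround the ovulated oocyte, and the clones made from them were female. All embryos were cultured in KSOM, an embryo medium, until the blastocyst stage. The labels of the samples give no strain, allele or age of the donors, the series describes the controls as matched in sex and genotype, and the study's methods name BDF1 oocytes and BDF1 IVF embryos. For the cumulus cells the methods give donors heterozygous for an *Xist* knockout, of BDF1 background, without a separate statement for the clones kept to the blastocyst. Each array held the amplified RNA of 1 sample. The extraction label speaks of tissues of single later embryos, so that 1 blastocyst per array is a reading of it.

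Cells make cholesterol from acetyl-CoA through mevalonate, the isoprenoids, squalene and lanosterol. SREBP2, the protein of *Srebf2*, is held in the endoplasmic reticulum by INSIG proteins while sterols are plentiful. When sterols fall it is cut, enters the nucleus and turns on the genes of the pathway, *Insig1* and its own gene among them. In the preimplantation embryo, cholesterol is needed for the membranes of each new cell, and it must come from stores of the egg, from the medium or from synthesis.

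SREBP2 binds a short DNA element that is often found beside boxes for the factors NF-Y and Sp1. The promoters of 3 members, picked by their results, are shown, and no motif was set against a difference or a correlation. *Hmgcs1* and *Insig1* had the correlation farthest from 0 over all embryos, and *Srebf2* was the member with a called difference. The windows come from RefSeq (GRCm38.p6), which held 6 of the 8 members, and *Sqle* and *Fdft1* were not among them. They ran from 250 bases before to 50 bases after the start of the gene, and the 250 bases before the start are printed 5′ to 3′ on the strand of the gene. These are chr13:119690101-119690350 for *Hmgcs1*, chr5:28071162-28071411 for *Insig1* and chr15:82147019-82147268 for *Srebf2*, all on the plus strand. Capitals mark the sterol element TCACNCCAC and the NF-Y box CCAAT on either strand.
Hmgcs1: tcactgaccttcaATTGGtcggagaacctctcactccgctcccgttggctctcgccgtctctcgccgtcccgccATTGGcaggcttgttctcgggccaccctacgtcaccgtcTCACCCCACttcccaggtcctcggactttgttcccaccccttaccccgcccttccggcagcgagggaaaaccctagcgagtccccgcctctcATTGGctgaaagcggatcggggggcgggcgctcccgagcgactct
Insig1: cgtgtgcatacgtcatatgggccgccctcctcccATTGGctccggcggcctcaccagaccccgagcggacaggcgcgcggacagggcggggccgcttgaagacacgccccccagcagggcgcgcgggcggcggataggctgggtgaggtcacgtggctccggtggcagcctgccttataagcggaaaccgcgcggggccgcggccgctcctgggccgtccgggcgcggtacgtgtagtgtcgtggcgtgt
Srebf2: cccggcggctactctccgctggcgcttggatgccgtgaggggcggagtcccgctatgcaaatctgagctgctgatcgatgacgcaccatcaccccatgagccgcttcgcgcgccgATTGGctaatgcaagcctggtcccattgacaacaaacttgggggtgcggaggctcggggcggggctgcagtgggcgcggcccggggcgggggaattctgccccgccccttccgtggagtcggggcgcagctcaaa
*Hmgcs1* was the 1 member of 6 with the sterol element, as TCACCCCAC at -137 to -129 from the start, while 1.24% of the 32851 RefSeq windows held it. The NF-Y box was present in 6 of 6 members and in 37.4% of all windows, and the Sp1 box GGGCGG in 6 of 6 members and in 35.7%. *Hmgcs1* held 3 NF-Y boxes before its start, *Insig1* and *Srebf2* 1 each. The matches of different motifs overlapped in 0 places in the members' windows. A match of letters does not show that a factor bound there, and a window without the letters says nothing of binding.

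Levels are given as log2 signal after quantile normalization, in which 1 unit is a 2-fold difference and dim signals were set to a floor of 16, or 4 on the log2 scale. A gene is given by the brightest of its probes, and the level of one gene cannot be set against that of another. Of the spots, 57.4% to 65.2% were well above background on the clone arrays and 58.5% to 61.3% on the IVF arrays, and the brightest probe of each of the 8 members was well above background on all 14 arrays. Each group lay on a slide of its own, and clones and IVF embryos were scanned on different scanners with different software versions, so that group and slide cannot be told apart. Epiblast markers (5 of 5) and trophectoderm markers (6 of 6) were well above background on every array. Of the 6 primitive endoderm markers, 2 were so on every fusion clone array, 3 on every injection clone array, 5 on every male and 6 on every female array. In whole embryos, fewer cells of a type and less RNA per cell cannot be told apart.

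None of the 6 enzymes passed the test in a comparison of clones with female IVF embryos. *Hmgcs1*, which makes HMG-CoA, the precursor of mevalonate, had a log2 signal of 16.21, 15.85, 15.92 and 15.91 in fusion clones 1 to 4 and of 16.83, 16.51, 15.77 and 16.30 in injection clones 1 to 4. Male IVF embryos 2 and 3 had 16.82 and 16.66, the spot of male 1 being marked as an outlier and left out, and female IVF embryos 1 to 3 had 15.53, 16.60 and 15.83. Female 2 lay near the males, while females 1 and 3 were lower, and injection clone 3 was the lowest of its group. The difference from female IVF embryos was -0.01 ± 0.28 (log2, SE) for fusion clones and 0.37 ± 0.35 for injection clones, with adjusted p of 0.981 and 0.566 from limma, adjusted by Benjamini-Hochberg over all probes tested, which holds for each adjusted p of a difference. Males exceeded females by 0.75 ± 0.41 with no overlap between the 2 males measured and the 3 females, but the adjusted p was 0.679.

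*Idi1*, which interconverts the building blocks of isoprenoids, was at 15.68, 15.57, 15.79 and 15.69 in the fusion clones, a span smaller than in any other group. In the injection clones it was 15.30, 15.28, 16.08 and 15.71, with clone 3 the highest. The males had 14.86, 15.77 and 16.19 and the females 14.60, 16 and 15.60, so that embryo 1 was the lowest of both sexes. Against females the difference was 0.28 ± 0.34 in fusion clones and 0.19 ± 0.39 in injection clones (adjusted p 0.599 and 0.783).

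*Fdft1*, which joins farnesyl units into squalene, was at 13.49, 13.61, 13.46 and 13.78 in the fusion clones and at 13.61, 13.65, 14.17 and 13.35 in the injection clones. The males had 13.88, 13.49 and 13.39 and the females 13.30, 14.13 and 13.66. Injection clone 3 and female 2 stood highest, and all groups overlapped. Fusion clones differed from females by -0.11 ± 0.23 (adjusted p 0.763), and injection clones by less than 0.01 with an SE of 0.28.

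*Sqle*, which oxidizes squalene in a rate-limiting step of the later pathway, had the lowest difference of the 8 members in both kinds of clones. It was at 15.14, 15.37, 15.30 and 15.44 in the fusion clones and at 15.31, 15.29, 15.44 and 14.62 in the injection clones. The males had 15.70, 16.20 and 16.46, all above every clone, and the females 14.78, 16.32 and 15.81. Female 1 lay within the range of the clones. The difference from females was -0.32 ± 0.36 in fusion clones and -0.47 ± 0.41 in injection clones, and neither passed the test (adjusted p 0.581 and 0.519). Clones were not tested against males.

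*Lss* forms lanosterol, the first sterol of the pathway. It was at 11.41, 11.42, 11.65 and 11.76 in the fusion clones, and the injection clones ranged more widely, with 10.55, 10.69, 12.08 and 11.30. Males were close together at 11.62, 11.68 and 11.44, and the females had 10.97, 12 and 10.90. The differences from females, 0.27 ± 0.31 and -0.13 ± 0.47, were within the spread (adjusted p 0.582 and 0.882).

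*Cyp51*, the demethylase that acts on lanosterol, was at 10.92, 10.11, 10 and 10.25 in the fusion clones and at 9.66, 9.88, 11.00 and 9.78 in the injection clones. The males had 10.77, 10.45 and 11.66 and the females 9.57, 11.03 and 10.38. Clone 3 was the highest of the injection clones by a wide gap. Against females the differences were -0.01 ± 0.40 and -0.25 ± 0.47 (adjusted p 0.996 and 0.764). A dimmer probe each of *Lss* and *Cyp51* gave a higher level in males than in females with no overlap, by 1.62 ± 0.37 and 1.54 ± 0.32, where the brightest probes gave 0.29 ± 0.36 and 0.63 ± 0.51, and the adjusted p of the dimmer probes were 0.449 and 0.398. Against females that *Cyp51* probe gave 0.70 ± 0.24 in fusion clones, with no overlap, and 0.77 ± 0.32 in injection clones (adjusted p 0.124 and 0.224). The remaining *Cyp51* probe gave -0.09 ± 0.30 and -0.12 ± 0.28. That *Lss* probe gave -0.02 ± 0.49 and -0.29 ± 0.33, and the remaining *Lss* probe 0.74 ± 0.29 and 0.22 ± 0.49 (adjusted p 0.159 and 0.799).

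**Figure D1:**
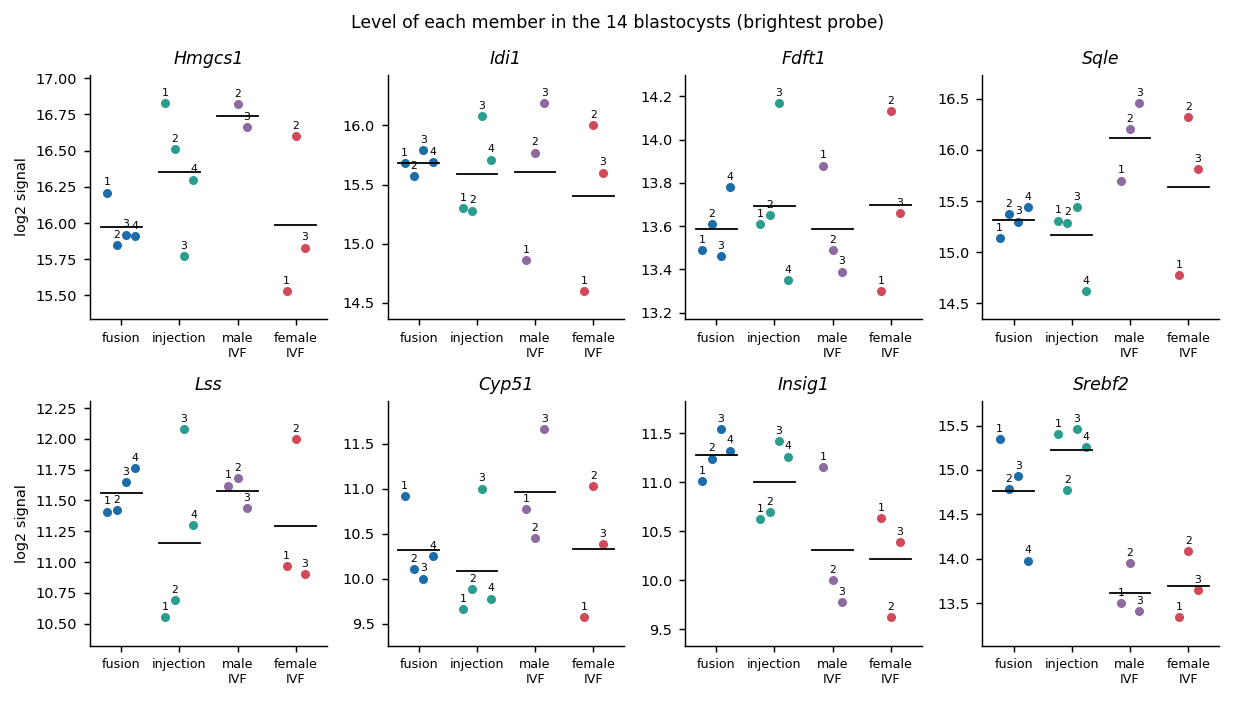
Log2 signal of the 8 members in each of the 14 blastocysts, by group, with numbers for the replicate and lines for group means; the scales differ between genes and do not start at 0. *Insig1* is between 11.01 and 11.54 in the fusion clones and between 9.62 and 10.63 in the female IVF embryos, whereas the ranges of the 6 enzymes overlap between clones and females.

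By their brightest probes, both regulators had higher means in clones than in female IVF embryos, which for *Srebf2* did not hold over its probes. *Insig1*, whose protein retains SREBP2 in the endoplasmic reticulum, was at 11.01, 11.24, 11.54 and 11.32 in the fusion clones and at 10.62, 10.69, 11.42 and 11.26 in the injection clones. The males had 11.15, 10 and 9.78, and the females 10.63, 9.62 and 10.39. All fusion clones were above all females, while injection clone 1 was just below female 1, and male 1 lay within the range of the clones. The difference was 1.06 ± 0.28 in fusion clones, a 2.09-fold higher level that missed the threshold (adjusted p 0.0654), and 0.79 ± 0.33 in injection clones (adjusted p 0.222). The adjusted p of the fusion clones was 0.0425 with normexp background correction and 0.0452 with the filter that asks for signal well above background on every array of a group, and lay between 0.0425 and 0.222 over the 12 other settings. The second *Insig1* probe differed in the same direction, by 1.90 ± 0.72 and 1.71 ± 0.57 (adjusted p 0.152 and 0.149).

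*Srebf2*, the gene of SREBP2 itself, was at 15.35, 14.78, 14.93 and 13.98 in the fusion clones and at 15.40, 14.77, 15.46 and 15.26 in the injection clones. The males had 13.50, 13.95 and 13.41 and the females 13.34, 14.09 and 13.65. Every injection clone was above every IVF embryo, and so were 3 of the 4 fusion clones, with clone 4 between females 2 and 3. The injection clones rose by 1.53 ± 0.25 over the females, or 2.89-fold (adjusted p = 0.0396), and the fusion clones had a difference of 1.07 ± 0.36 (adjusted p 0.12). Injection and fusion clones were not distinguished from each other (-0.46 ± 0.31 for fusion minus injection, adjusted p 0.814). In fusion clones the call was made with all 4 groups in 1 fit (adjusted p 0.0463), and with probes averaged the difference was 0.32 (adjusted p 0.345).

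The *Srebf2* call of the injection clones rested on 1 of 4 probes. In the coordinates of the array it lies 30.8 kb and 31.7 kb from 2 other bright probes of the gene, which gave -0.10 ± 0.43 and 0.06 ± 0.28 (adjusted p 0.909 and 0.914), and -0.34 ± 0.29 and -0.06 ± 0.26 in fusion clones (adjusted p 0.482 and 0.894). The remaining probe was dim, at 4 in the 3 females and up to 5.34 elsewhere. With the probes of the gene averaged the difference was 0.55 with an adjusted p of 0.216. The call was also lost with the replicate number as a block (1.52, adjusted p 0.208) and on leaving out any 1 of the 4 injection clones or female 1 or 3, with adjusted p between 0.0642 and 0.104, while without female 2 it was 0.0427. The block used only replicate numbers found in both groups and so left out injection clone 4. Same-numbered injection clones and females did not deviate together over probes (r of -0.05, -0.04 and -0.12). Over the 12 other settings the adjusted p ranged from 0.0141 to 0.216.

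**Figure D2:**
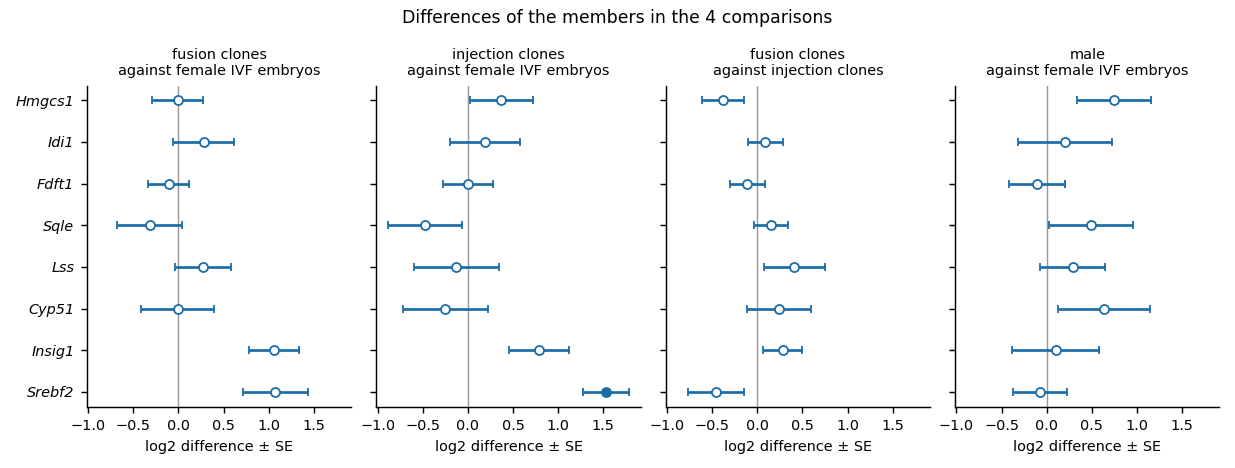
Log2 difference (x axis) of each member (y axis) in the 4 comparisons, as the first group minus the second with bars for the SE; filled points have an adjusted p below 0.05. The 1 filled point is *Srebf2* in injection clones at 1.53, and *Insig1* and *Srebf2* lie at 1.06 and 1.07 in fusion clones, right of the 6 enzymes.

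Over the 8 members, 0 were called in fusion clones against female IVF embryos, where 3.47% of the 22162 genes tested were higher and 5.58% lower. In injection clones, 1 of 8 was called higher, where 1.34% of 22406 genes were higher and 2.43% lower. Between fusion and injection clones 0 of 8 were called and 0% of 21986 genes were called in either direction, although 1318 genes had an unadjusted p below 0.05 in limma's test. Between male and female IVF embryos 0 of 8 were called, beside 0.0228% of 21919 genes higher in males and 0.0411% lower. The median difference of the members was 0.13, 0.10, 0.12 and 0.24 in these 4 comparisons, beside -0.17, -0.13, -0.02 and -0.04 over all genes tested. Fusion minus injection clones ranged from -0.46 ± 0.31 for *Srebf2* to 0.41 ± 0.34 for *Lss*, and males minus females from -0.11 ± 0.31 for *Fdft1* to 0.75 ± 0.41 for *Hmgcs1*. The 3 comparisons with female IVF embryos share the same 3 female arrays.

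Whether the members moved together was asked embryo by embryo, on the deviation of each level from the mean of its group. By their brightest probes, the 6 enzymes deviated in the same direction in 2 female IVF embryos. Deviations within a group add up to 0 for each gene, so these 2 embryos are not independent of each other. In female 1, 0 of 6 were above the group mean, and the mean deviation of the 6 was -0.60 on the log2 scale. In female 2, 6 of 6 were above it, with a mean deviation of 0.62 and single values from 0.43 for *Fdft1* to 0.71 for *Lss* and *Cyp51*. By its other probe, *Idi1* was at 8.65, 8.58 and 8.97 in females 1 to 3 (mean 8.73), so that female 2 was below the mean. A dimmer *Cyp51* probe gave 9.39, 9.84 and 8.85 (mean 9.36), with female 1 just above the mean. The other probes of *Hmgcs1*, *Fdft1* and *Lss* and the remaining *Cyp51* probe deviated as the brightest did in both females. Injection clone 3 had 5 of 6 above the mean, with *Lss* and *Cyp51* at 0.92 and *Hmgcs1* at -0.58. The 4 fusion clones stayed close to their mean, with mean deviations of -0.08 to 0.07. Spots well above background made up 60.7% of the array in female 1 and 60.8% in female 2, and 64.0% in injection clone 3, where the other injection clones had 59.8% to 65.2%. Spots marked as outliers numbered 338 in female 1, the most of any array, and 194 and 182 in females 2 and 3.

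By the brightest probes, *Insig1* went the other way in the IVF embryos. It deviated by 0.41 in female 1, where the enzymes were low, and by -0.59 in female 2, where they were high. Among the males it was 0.84 above its mean in embryo 1, where *Idi1* was at -0.75, and at -0.53 in embryo 3, where *Idi1* was at 0.58. In injection clone 3, in contrast, *Insig1* was 0.42 above its mean beside 5 enzymes above theirs. *Srebf2* deviated with the enzymes in females 1 and 2, by -0.35 and 0.40. By the other *Insig1* probe, females 1 to 3 were at 9.05, 8.24 and 10.63 with a mean of 9.31. Female 1 was thus below the mean by that probe, as the enzymes were, and female 2 was again the lowest. The males were at 11.28, 10.48 and 10.29 by it, in the same order as by the brightest probe.

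The spread of the members also differed by group. Their median SD was 0.17 in fusion clones, 0.39 in injection clones, 0.34 in males and 0.58 in females, beside 0.30, 0.35, 0.43 and 0.37 over the 12823 genes well above background on all arrays. These medians are a description of 3 or 4 arrays each.

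**Figure D3:**
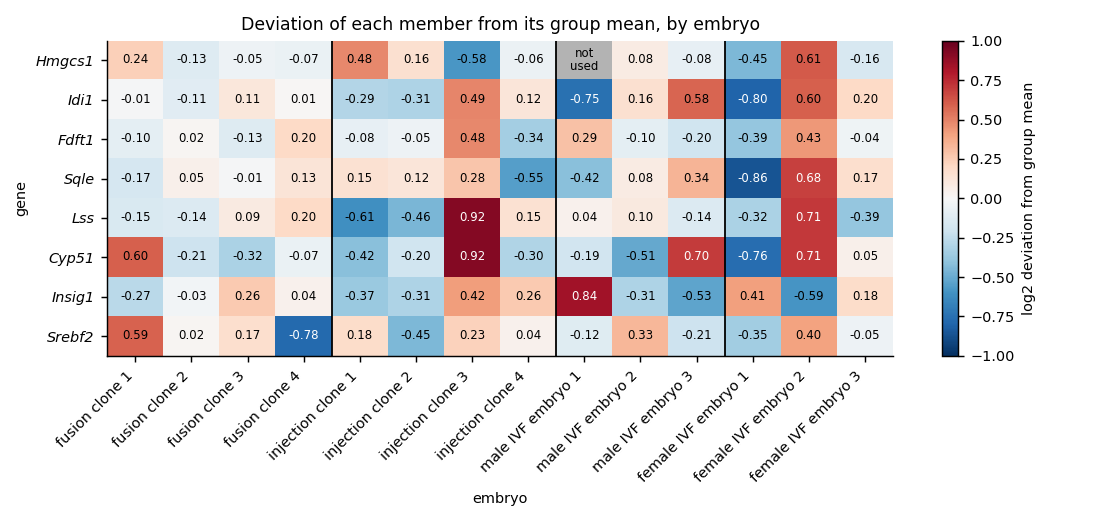
Deviation of each member (rows), by its brightest probe, from the mean of its group in each embryo (columns), on the log2 scale by color and number. The spot marked as not used was an outlier. Female IVF embryo 1 is below 0 and female IVF embryo 2 above 0 for all 6 enzymes, with *Insig1* at 0.41 and -0.59.

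Pearson correlations of these deviations were computed for every pair of members with at least 6 embryos, 28 pairs in the 8 clones, 21 in the 6 IVF embryos and 28 in all 14, and tested by two-sided exact permutation within groups with adjustment over the pairs of each set. The median r was 0.16 in the clones, 0.48 in the IVF embryos and 0.29 in all embryos, beside 0.02, 0.02 and 0.01 over all pairs of genes, whose quartiles were -0.31 and 0.34, -0.42 and 0.45, and -0.24 and 0.27. After adjustment 0 pairs were significant in each of the 3 sets by this exact permutation test, and 5, 2 and 2 had an unadjusted p below 0.05. In the IVF embryos the smallest p this permutation allows is 0.0278. It moved males and females separately, although arrays of the same replicate number were taken to pair. The permutation p-values of the IVF embryos and of all 14 embryos therefore do not account for that pairing.

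The pairs of enzymes were positive throughout in the IVF embryos, with 10 of 10 above 0 and a median r of 0.54. *Idi1* and *Sqle* had r = 0.96 and rho = 1.0 (6 embryos, exact permutation p = 0.0278 for both, adjusted p 0.292 and 0.35), and r = 0.86 without the 2 embryos farthest from the median of *Idi1*. This value rested on the brightest of 2 *Idi1* probes. The other, at 8.88, 8.28 and 7.61 in the males and 8.65, 8.58 and 8.97 in the females and well above background on all arrays, gave r = -0.40 with *Sqle*. The median over the enzyme pairs was 0.35 without female 1 and -0.02 without female 2, so that it rested on female 2. It was 0.59, 0.73 and 0.70 without male 2, male 3 and female 3, and 0.86 without male 1, where *Hmgcs1* is measured in all remaining embryos and 15 pairs enter in place of 10. In the clones the enzyme pairs were mixed, with 9 of 15 above 0 and a median of 0.24, which was -0.18 without injection clone 3. In all 14 embryos 14 of 15 were above 0, with a median of 0.56. That median was 0.35 and 0.37 without female 1 and female 2, with 10 of 15 above 0 in both cases. Without any 1 of the other 12 embryos it was 0.48 to 0.62. Without the 2 farthest embryos of each pair it was 0.19, with 11 of 15 above 0, and the median rho over all 14 embryos was 0.37. In the IVF embryos and in the clones the median r without the 2 farthest embryos was 0.47 and 0.01.

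*Hmgcs1* had negative correlations with the other enzymes in the clones, of which most were smaller or of other sign without the 2 farthest clones. Its r with *Idi1*, *Fdft1*, *Sqle*, *Lss* and *Cyp51* was -0.85, -0.64, -0.17, -0.93 and -0.53, and without those clones -0.40, -0.11, 0.01, -0.62 and 0.73. With *Lss* the exact permutation p was 0.0156 (8 clones, adjusted p 0.126, rho -0.83 with p = 0.0312 and adjusted p 0.292), and r was -0.76 without injection clone 3. The other probes of these genes gave -0.42, -0.20 and -0.90. *Idi1* and *Lss* gave the highest value in the clones, r = 0.97 (exact permutation p = 0.0208, adjusted p 0.126), with rho = 0.88 (p = 0.0799 by exact permutation, adjusted p 0.373) and r = 0.91 without the 2 farthest clones. For this pair r was 0.68 with the other *Idi1* probe and 0.52 and 0.78 with the other *Lss* probes.

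*Insig1* and *Idi1* had correlations of opposite sign in clones and in IVF embryos by their brightest probes, but not by the other probes. In the IVF embryos 0 of its 5 correlations with enzymes were above 0, with a median of -0.62 and -0.91 for *Idi1* (6 embryos, exact permutation p = 0.0278, adjusted p 0.292). For that pair rho was -0.89 (exact permutation p = 0.0833, adjusted p 0.35) and r was -0.78 without the 2 farthest embryos and -0.88 without female 2. The other *Idi1* probe gave 0.79 with *Insig1* in these embryos, and the other *Insig1* probe gave -0.34 with *Idi1*. In the clones 4 of 6 were above 0, with a median of 0.29 that became -0.51 without injection clone 3. There *Idi1* and *Lss* both gave 0.89 (8 clones, exact permutation p = 0.0226 and 0.0122, adjusted p 0.126 for both), with rho of 0.95 and 0.93 (exact permutation p = 0.0486 and 0.0278, adjusted p 0.34 and 0.292) and r of 0.84 and 0.83 without the 2 farthest clones. With the other *Insig1* probe these were -0.05 for *Idi1* and 0.12 for *Lss*. The other *Idi1* probe gave 0.64, and the other *Lss* probes 0.45 and 0.68. Whether clones and IVF embryos differ in this was not tested. *Hmgcs1* and *Insig1* went in opposite directions over all embryos, with r = -0.90 (13 embryos, exact permutation p = 0.00275, adjusted p 0.077) and rho = -0.78 (p = 0.0211, adjusted p 0.425). That r was -0.80 without the 2 farthest embryos, -0.82 without female 2 and -0.86 within the 8 clones, and with another probe of *Hmgcs1* or *Insig1* it was -0.52 or -0.50.

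*Srebf2* had 6 correlations with the enzymes in the clones, which ranged from -0.24 to 0.39 with a median of 0.06. In the IVF embryos its 5 correlations with enzymes were from 0.26 to 0.78, and the highest, with *Lss*, had an exact permutation p of 0.0833 (6 embryos, adjusted p 0.438), with rho = 0.66 (exact permutation p = 0.333, adjusted p 0.632) and r = 0.85 without the 2 farthest embryos. Over the other probes of that pair r was -0.16 to 0.72. The median of the 5 correlations was 0.61, and without the 2 farthest embryos of each pair it was 0.16, with 3 of 5 above 0. It was 0.31 without female 1 and 0.31 without female 2. The male and female arrays of the same replicate number deviated together over all probes, with r of 0.15, 0.17 and 0.17, and the part of this in the correlations of the IVF embryos was not tested.

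**Figure D4:**
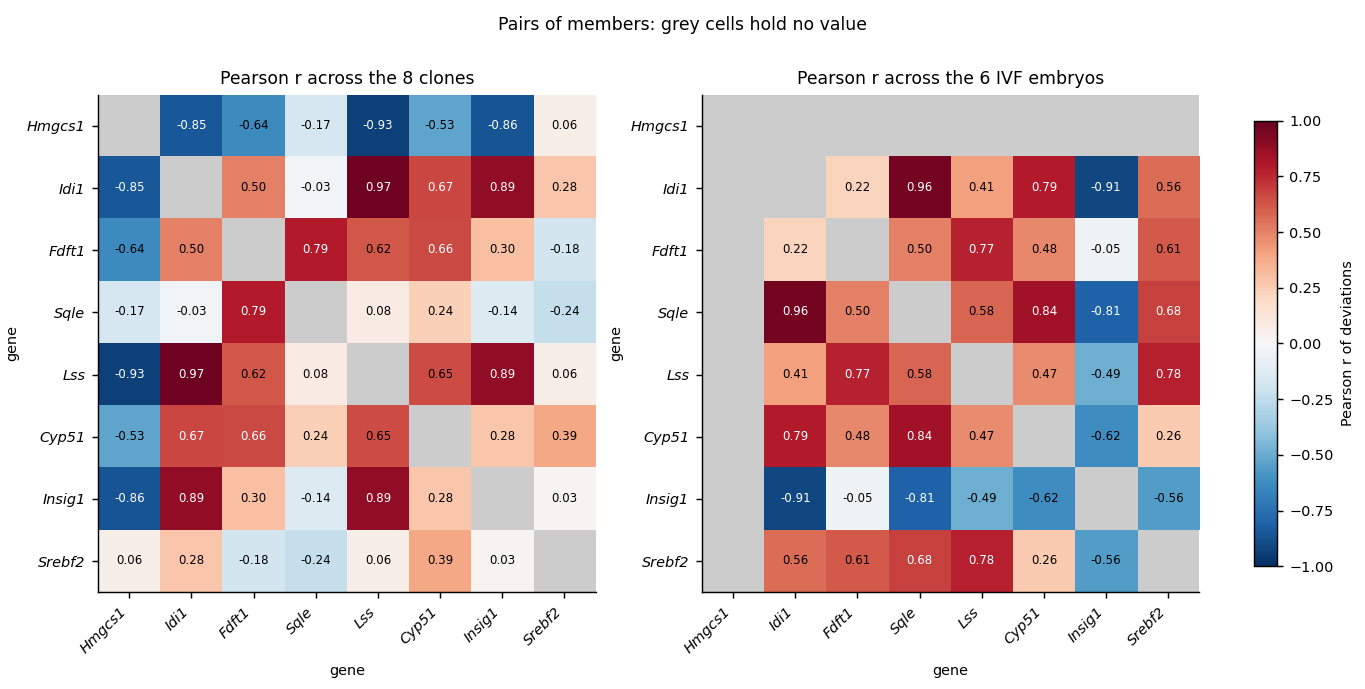
Pearson r of the deviations of each pair of members, by their brightest probes (rows and columns), across the 8 clones and across the 6 IVF embryos, by color and number; grey cells are the diagonal and pairs of *Hmgcs1* measured in under 6 embryos. The *Insig1* row is negative for all 5 enzymes in the IVF embryos, from -0.91 to -0.05, and reaches 0.89 for *Idi1* and *Lss* in the clones.

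The other 15 enzymes of synthesis gave 1 call. *Ebp*, the sterol isomerase encoded on the X chromosome, was at 17.38, 17.37, 17.34 and 17.69 in the fusion clones and at 16.35, 16.70 and 16.05 in the females, a rise of 1.08 ± 0.21 (adjusted p = 0.0301). In the injection clones it was at 16.92, 17.46, 17.86 and 17.67, all above the females, with a difference of 1.11 ± 0.28 and an adjusted p of 0.0818. This call was lost without any 1 of the 4 fusion clones or without female 1 or 3 (adjusted p 0.0662 to 0.0762). The remaining 14 enzymes were not called in fusion clones, and 0 of 15 were called in injection clones. The median difference of the 15 was 0.29 in fusion clones and 0.11 in injection clones, with 11 and 9 of 15 above 0.

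**Figure D5:**
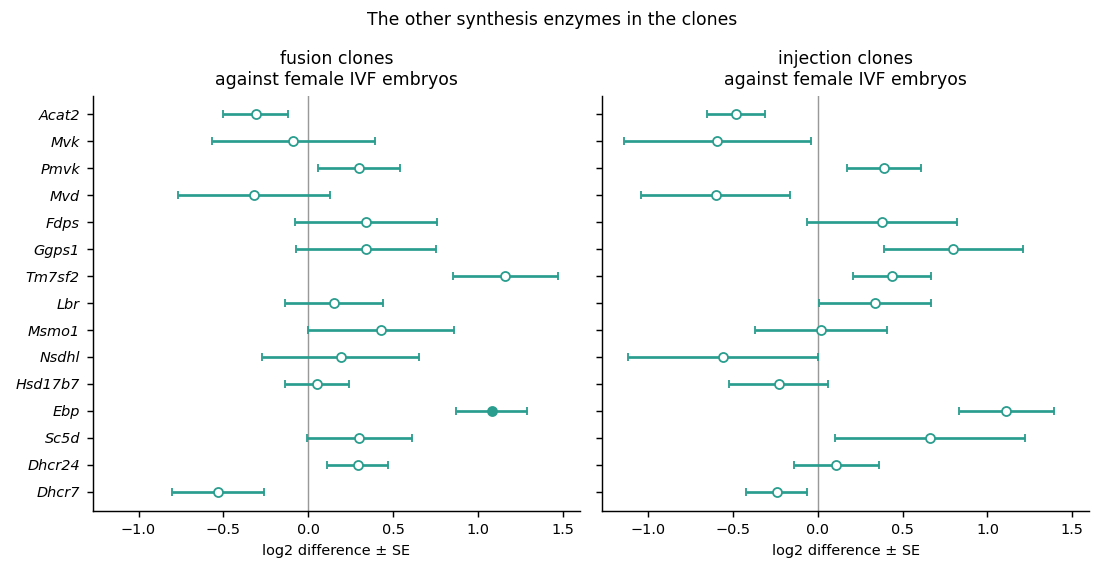
Log2 difference (x axis, bars for SE) of 15 further enzymes of cholesterol synthesis (y axis, in pathway order) in fusion and injection clones against female IVF embryos; filled points have an adjusted p below 0.05. *Ebp* lies at 1.08 and 1.11, and is filled in fusion clones.

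Outside synthesis, 3 genes that carry cholesterol within or out of the cell passed the test. *Npc1*, which moves cholesterol out of lysosomes, was at 13.66, 13.70, 13.60 and 13.49 in the fusion clones, at 13.58, 13.38, 13.25 and 13.71 in the injection clones and at 12.61, 12.19 and 12.30 in the females. It rose by 1.24 ± 0.17 in fusion clones and 1.11 ± 0.18 in injection clones (adjusted p = 0.0121 and 0.0381). *Apoe*, a lipoprotein component, was at 13.70, 14.30, 13.67 and 12.89, at 12.12, 12.79, 12.76 and 12.82 and at 15.29, 16.11 and 15.36 in the same groups. All clones were below all females, and the differences were -1.95 ± 0.38 and -2.96 ± 0.29 (adjusted p = 0.0306 and 0.0129). The call of *Npc1* in fusion clones and that of *Apoe* in injection clones held without any 1 embryo (adjusted p 0.0177 to 0.0445 and 0.0179 to 0.0458). With its 2 probes averaged *Npc1* differed by only 0.62 in fusion clones and 0.56 in injection clones. The rise of 1.24 and 1.11 was thus that of its brightest probe and was smaller over both probes. Over the 12 other settings its adjusted p reached 0.133 and 0.168. The call of *Npc1* in injection clones was lost without any 1 embryo (0.0511 to 0.0917), and that of *Apoe* in fusion clones without fusion clone 1 or 3 or any 1 female (up to 0.0779).

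*Abcg1*, an exporter of cholesterol, fell by 2.36 ± 0.45 on the log2 scale in fusion clones (adjusted p = 0.0288), with 7.44 to 9.12 in these and 10.08 to 10.99 in females. In the list of 12 transport and efflux genes, 1 rose, 2 fell and 9 were not called in fusion clones, and 1 rose, 1 fell and 9 were not called among the 11 tested in injection clones. Of 12 further regulators 1 was called in fusion clones, *Nr1h2*, a sterol-sensing nuclear receptor, which fell by 1.01 ± 0.19 (adjusted p = 0.0286), and 0 in injection clones. Of 11 genes of fatty acid synthesis 1 was called in fusion clones, *Fasn*, the fatty acid synthase, which fell by 1.31 ± 0.24 (adjusted p = 0.033, 3 clones measured), and 0 in injection clones. The calls of *Abcg1*, *Nr1h2* and *Fasn* each had an adjusted p above 0.05 on leaving out some single embryos, the highest being 0.0799, 0.0798 and 0.0909 and the lowest 0.035, 0.0475 and 0.0465. With probes averaged, *Fasn* had an adjusted p of 0.391. The uptake receptor *Scarb1* differed by -0.25 ± 0.25 and 0.23 ± 0.21 in fusion and injection clones (adjusted p 0.557 and 0.538), and *Vldlr* by 0.20 ± 1.79 and -1.03 ± 1.88 (adjusted p 0.952 and 0.753). The median difference of these lists was -0.02, -0.19 and -0.52 in fusion clones and -0.43, -0.15 and -0.16 in injection clones.

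Lineage markers differed beside these genes. The median difference of the epiblast markers was -0.39 in fusion clones and -0.20 in injection clones with 0 of 5 called. Among them *Nanog* was higher, by 1.08 ± 0.39 and 1.11 ± 0.45 (adjusted p 0.14 and 0.207). *Sox2* differed by -0.39 and 0.54, and the other epiblast markers were below 0 in both. The median difference of the trophectoderm markers was -0.19 and -0.32 with 1 and 0 of 6 called lower, *Elf5* in fusion clones. Of the primitive endoderm markers, *Foxa2* and *Sox7* were called lower in fusion clones and *Foxa2* in injection clones. The median difference of the 6 was -2.81 in fusion clones and -4.18 in injection clones, but *Gata6* differed by 0.23 and -0.10, and fusion clones 2 and 3 were above every female for *Sox17* and *Pdgfra*. Their summed signal was 74100 to 161000 in fusion clones, 61400 to 136000 in injection clones, 65200 to 103000 in males and 97400 to 142000 in females. *Foxa2* was on the floor in all 8 clones and between 10.86 and 11.40 in the females, and *Sox7* was at 4 to 6.43 in the fusion clones and 9.40 to 12.60 in the females. Of 10 cumulus cell markers, 6 were well above background on no clone array, and their summed signal was 192 to 304 in fusion clones, 200 to 555 in injection clones, 266 to 2130 in males and 304 to 837 in females. The part of either in the differences was not tested.

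The mean profile of the 8 members over the 14 embryos was set against the 12403 other genes well above background on all arrays with a value on each. The highest correlations, a description over 14 embryos whose group means had been removed, were 0.91 for *Fbxl6*, 0.87 for *BC049806*, 0.86 for *9030416H16Rik* and for the probe A_51_P246305, 0.85 for *J00623*, *Mrpl32*, *Cyhr1*, *Pex14* and *Actb*, and 0.83 for *4930481A15Rik*. None of these 10 is in the sterol lists. Among the other 15 synthesis enzymes the median was 0.36 and 14 were above 0, beside a median of -0.02 and 5867 of 12403 above 0 over all genes. The mevalonate and isoprenoid enzymes *Fdps*, *Mvk* and *Mvd* had 0.83, 0.79 and 0.74 and stood at ranks 14, 36 and 67. The later enzymes *Msmo1* and *Nsdhl* had 0.72 and 0.68 (ranks 104 and 165), above the mevalonate enzyme *Pmvk* with 0.64 (rank 253). *Ggps1*, also of the isoprenoid branch, had 0.02 and *Acat2* -0.40. The epiblast gene *Nanog* had 0.75, at rank 64. In females 1 and 2 the mean deviation of the 6 member enzymes was -0.60 and 0.62. *Fdps* was at 12.93 and 14.56 there, *Mvk* at 9.34 and 11.42, *Mvd* at 10.81 and 12.57 and *Nanog* at 11.57 and 13.10. For each of these genes the 2 were the lowest and the highest female. No correlation with the profile was computed without single embryos, so how far they rest on these 2 was not tested. The medians were 0.04 for the regulators, 0.16 for transport and efflux, 0.17 for fatty acid synthesis, 0.13 for epiblast and -0.06 for trophectoderm markers.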

How the data were processed

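RNA of 14 samples was amplified in a pair of linear rounds, labeled with Cy3 and hybridized to Agilent mouse arrays. The authors deposited each array's intensity per spot, background-subtracted by Feature Extraction (10.5.1.1 for clones, 9.5.3.1 for IVF embryos, per the file headers) and not normalized between arrays. The authors also deposited log2 values of the same arrays, shifted per array and centred per probe, which served as an alternative; 0 of its columns were left unused. Control spots (1639 of each array) and spots marked as outliers (101 to 338) were left out here. Intensities were normalized by quantiles with a floor of 16, as 6790 to 9981 spots per IVF array were below 0, and averaged per probe on the log2 scale. Probes above background on 1 or more arrays of a comparison were tested with limma 3.58.1 (R 4.3.3). A gene is its brightest probe, and calls were adjusted over all probes tested. Correlations used Python 3.11.15. Arrays have no depth, and their number limits precision. Nothing states that samples of a group came from separate donors, so p-values measure the spread between samples.

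All 8 members are named in each comparison, and from other lists genes called in a comparison of clones with females (at most the 4 of each list and comparison with the largest change), plus the 10 genes most like the mean member profile. The members, the lists and the floor were chosen with earlier results of these data known. Alternatives were background correction, scaling, floors, filters, probe averaging, a variance trend, the replicate block and leaving out each array; keeping outlier spots, and other probes in the pairs named, were added after seeing the data. Every same-numbered pair deviated together between male and female embryos (r of 0.15, 0.17 and 0.17 over probes), where the numbers were taken to pair. In the other comparisons r ran from -0.12 to 0.18, with at least 1 pair under 0.1. The limma test of groups was tried on simulated data.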

Additional observations from a re-analysis of the deposited data

Results flagged for a closer look

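*Cyp51* in injection clone 3 lay far from the other injection clones. Its log2 signal was 11.00, whereas the others were at 9.66 to 9.88, and the gap made up 0.833 of the range of the group. Of 16 groups of 4 values examined, 1 was marked in this way, and about 0.8 would be by chance.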

How the results depend on the processing

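The count of called members changed in 2 comparisons. In fusion clones against female IVF embryos it was 1 with normexp background correction, with the stricter filter and with all 4 groups in 1 fit, and 0 otherwise. In injection clones it was 0 with scaling to the 75th percentile, the deposited log2 values, a floor of 1, no filter, averaged probes or the replicate block, and 0 to 1 on leaving out an embryo. The cause was not tested. The block with the replicate number changed no other call of a member, 0 being called with it in each of the 4 comparisons, and no call of *Ebp*, *Npc1*, *Apoe*, *Abcg1*, *Nr1h2* or *Fasn* passed with it (adjusted p 0.122 to 0.204). For clones against females the block left out clone 4, which has no female of its number. The median r ranged from -0.23 (without injection clone 3) to 0.42 in the clones, from 0.00 (without female 2) to 0.70 in the IVF embryos and from 0.06 to 0.40 in all embryos on leaving out 1 embryo, and over the 9 other settings from 0.08 to 0.28, 0.37 to 0.59 and 0.17 to 0.35.

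Uncalled differences and correlations changed sign in 52 cases. In fusion clones against females *Cyp51* was 0.01 with the deposited values and with the block, 0.03 with outlier spots kept and 0.20 with probes averaged, and *Hmgcs1* was 0.01 with the block, 0.04 with outlier spots kept and 0.18 with probes averaged. In injection clones *Fdft1* was 0.01 with normexp, 0.05 with outlier spots kept and 0.11 with the block, and *Cyp51* 0.13 with probes averaged. Probe averaging also gave *Fdft1* 0.48 between fusion and injection clones, and in males against females 0.46 for *Fdft1*, -0.17 for *Hmgcs1*, -0.14 for *Idi1* and 0.17 for *Srebf2*. The -0.17 of *Hmgcs1* is no reversal of the gene: the average of male 1 lacks the bright probe and holds only the dim ones, and each probe alone was higher in males (by 0.75 to 1.24). With other probes, r was -0.05 for *Idi1* and *Insig1* in the clones, and in the IVF embryos -0.40 for *Idi1* and *Sqle*, 0.79 for *Idi1* and *Insig1* and -0.16 for *Lss* and *Srebf2*. On leaving out 1 embryo, fusion clones against females ranged from -0.39 to 0.35 for *Cyp51*, -0.24 to 0.29 for *Hmgcs1*, -0.12 to 0.58 for *Idi1*, -0.31 to 0.10 for *Fdft1* and -0.75 to 0.02 for *Sqle*. Injection clones ranged from -0.20 to 0.21 for *Fdft1*, -0.44 to 0.22 for *Lss*, -0.21 to 0.49 for *Idi1* and -0.63 to 0.11 for *Cyp51*. Fusion against injection clones ranged from -0.01 to 0.26 for *Idi1*, -0.22 to 0.05 for *Fdft1* and -0.03 to 0.24 for *Sqle*. Males against females ranged from -0.32 to 0.36 for *Insig1*, -0.20 to 0.58 for *Idi1*, -0.25 to 0.13 for *Srebf2* and -0.30 to 0.11 for *Fdft1*.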
